A study of Homo sapiens with 4 samples.

Results

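The 8 genes CD44, CD24, NT5E, THY1, PROCR, ENG, PROM1 and MME encode cell surface proteins by which stem-like, progenitor or mesenchymal cells are commonly sorted. They were taken by symbol from 25317 gene symbols, and each of the 8 had 1 row in every table. Messenger RNA was measured in MCF10A, an established human breast epithelial line that is not from a tumour, 6 days after lentiviral infection. One library came from cells given Zeb1 and one from cells given Snail, transcription factors of the epithelial-to-mesenchymal transition (EMT), one from cells given Ovol2, a factor of the reverse transition, and one from cells given the empty vector. All 4 groups, the control included, were infected with a virus carrying the ZsGreen fluorescent marker and sorted for fluorescence, and each group held 1 library. The labels name neither the species nor the promoter of the delivered sequences.

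An EMT replaces cell-cell adhesion by matrix contact and motility, and in mammary cells it has been linked to a stem-like surface described as CD44-high and CD24-low. CD44 binds hyaluronan, a sugar polymer of the matrix, and CD24 is a small, heavily glycosylated protein held in the membrane by a glycosylphosphatidylinositol (GPI) anchor. The other markers are a pair of surface enzymes (NT5E, also called CD73, and MME, also called CD10), a pair of receptors (PROCR and ENG, also called CD201 and CD105), and THY1 (CD90) and PROM1 (CD133), which mark stromal and progenitor cells.

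Levels are in FPKM, which divides the fragments of a gene by its transcript length and by the size of the library. The commonest of the smallest values, sought in a preset window, put the depth at about 34.3 M fragments for Zeb1 and 31.6 M for Snail. It was about 24.1 M for Ovol2 and 29.1 M for the empty vector (M, 1e+06). With 1 library per group no spread between replicates exists, so no difference below could be set against replicate error, and each compares single libraries. A gene that reached 1 FPKM in a factor library or in the empty vector library was kept, and it was called higher or lower where FPKM + 1 differed by 2-fold or more between them, a log2 ratio of at least 1 in either direction. A level in bulk cells cannot tell fewer expressing cells from less RNA per cell. The delivered genes followed the labels, with ZEB1 at 17.3 FPKM in its own library against 0.260 with the empty vector, SNAI1 at 99.7 against 0.152 and OVOL2 at 78.3 against 6.32.

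Of the 8 markers, 6 reached 1 FPKM in every library, and THY1 and PROM1 did so in none. In the Zeb1 library 1 of 6 kept markers, MME, was higher and 1, PROCR, was lower, where the rule called 4.52% of all 11922 kept genes higher, 8.49% lower and so 13.0% either way. With Snail 0 of 6 markers were higher and 0 lower, where it called 1.0% of 11644 kept genes higher, 1.5% lower and 2.51% either way. With Ovol2 0 markers were higher and 1, NT5E, was lower, where it called 6.82% of 11812 higher, 25.1% lower and 31.9% either way. The 1 lower marker of 6 with Ovol2 is thus no more than the share over all genes. The median log2 ratio of the 6 was -0.45 with Zeb1, 0.06 with Snail and -0.67 with Ovol2, beside medians over all kept genes of -0.09, 0.12 and -0.51. Each call thus fell on a different marker. All 3 comparisons share the empty vector library. On the chromosomes of GRCh38, CD44 and THY1 lie on 11, CD24 and NT5E on 6, PROCR on 20, ENG on 9, PROM1 on 4 and MME on 3. The deposited values come from hg19, and where that build places these genes was not read. The plot of levels by library shows this spread.

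**Figure D1:**
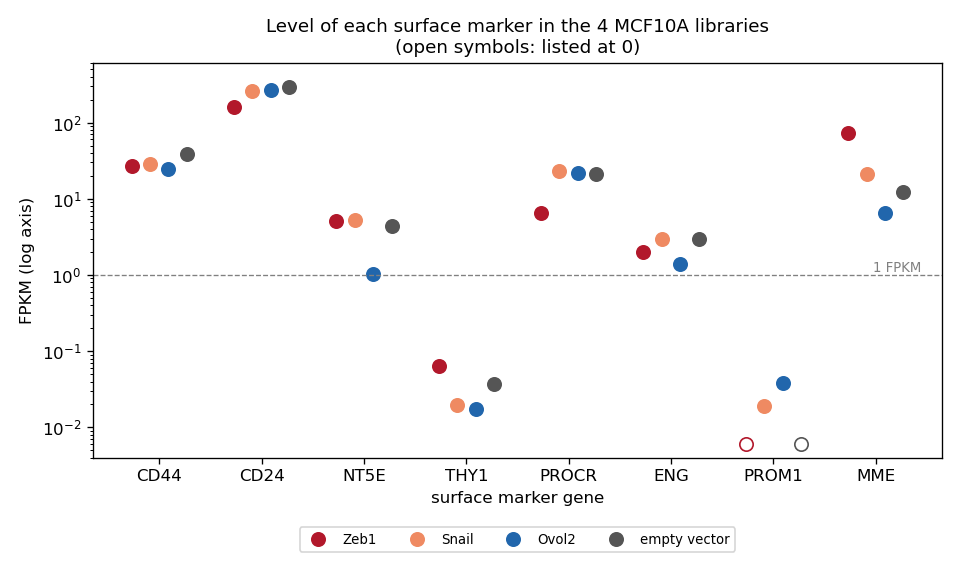
FPKM (log axis) of the 8 surface marker genes in the Zeb1, Snail, Ovol2 and empty vector libraries, 1 point per library, with open symbols for values listed at 0. MME is highest with Zeb1 at 72.5 FPKM, PROCR is lowest with Zeb1 at 6.47, NT5E is lowest with Ovol2 at 1.02, and THY1 and PROM1 lie below 0.1 FPKM in all 4 libraries.

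MME encodes neprilysin, a membrane metalloendopeptidase that cleaves small signalling peptides outside the cell and is a known marker of myoepithelial and stromal cells in the breast. It stood at 72.5 FPKM in the Zeb1, 21.4 in the Snail, 6.43 in the Ovol2 and 12.1 in the empty vector library. It was thus highest with both EMT factors and lowest with Ovol2. The Zeb1 level was 5.97-fold that of the empty vector (log2 ratio 2.48), the 65th highest ratio of 11922 kept genes. With Snail the plain ratio was 1.76 (log2 ratio 0.77), short of the 2-fold rule but the 245th highest of 11644. With Ovol2 the log2 ratio was -0.82, less than 2-fold, in a library where the median gene was at -0.51. As plain ratios without rescaling, the Zeb1 and Ovol2 libraries differed 11.3-fold, and Zeb1 and Snail 3.39-fold. Upper quartile scaling narrowed the gap between Zeb1 and Ovol2, with log2 ratios over the empty vector of 2.55 and -0.20. The signs of all 3 ratios over the empty vector stayed the same under all 10 alternative settings, some of which cannot alter a marker ratio. The Ovol2 ratio ran from -1.01 without RMRP and RPPH1 to -0.20 under upper quartile scaling.

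RefSeq gives 4 start windows for MME. The MME gene entry begins further upstream, at 155024202 on GRCh38, so all 4 windows lie inside it. The first window is shown up to its first base in an annotated exon. Also shown are 30 bases around the single CAGGTG that a pair of overlapping later windows share. CAGGTG is the form of the E-box (CANNTG) that ZEB and SNAIL factors are known to bind. Capitals mark E-box letters, read on both strands. CAGGTG contains CANNTG, so the searches overlap.
MME, GRCh38.p14 chr3:155079422-155079646, plus strand: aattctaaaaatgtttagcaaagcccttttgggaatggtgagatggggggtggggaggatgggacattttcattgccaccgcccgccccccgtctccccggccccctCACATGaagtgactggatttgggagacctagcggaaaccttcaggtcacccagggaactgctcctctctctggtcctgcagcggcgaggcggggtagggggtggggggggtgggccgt
MME, GRCh38.p14 chr3:155079779-155079808, plus strand: cggagggatgccCAGGTGcctcgtcgcccc
The first stretch holds 1 CANNTG, written CACATG, and no CAGGTG.

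By the distance between the 3 log2 ratios, the genes nearest to MME among 8277 at 5 FPKM or more in any library were PLA2R1 (distance 0.14), CDH2 (0.22) and BCHE (0.31). PLA2R1, a phospholipase receptor, was at 16.3, 3.81, 0.530 and 1.86 FPKM in the Zeb1, Snail, Ovol2 and empty vector libraries. CDH2, the neural cadherin that commonly marks EMT, was at 11.3, 3.11, 0.110 and 1.23, and the esterase BCHE at 17.1, 4.91, 1.30 and 2.88. All 3 share the order of MME, highest with Zeb1, then Snail, then the empty vector, then Ovol2. Closeness at these distances fixes that order, so the shared order follows from the selection. The fibroblast markers DCN, LUM, COL1A1, COL3A1 and PDGFRB, which EMT can also induce, summed to 760 FPKM with Zeb1, 138 with Snail, 7.84 with Ovol2 and 15.4 with the empty vector. DCN carried the sum, with 604 FPKM with Zeb1 and 131 with Snail, and COL1A1 and PDGFRB did not keep the order of MME, since COL1A1 was at 2.83 with Snail against 3.49 with the empty vector and PDGFRB at 0.0464 with Ovol2 against 0.0240. Of these 5, 4 reached 1 FPKM with Zeb1, 4 with Snail, 1 with Ovol2 and 2 with the empty vector, and 0 were at 0. Their part in the MME values was not tested.

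**Figure D2:**
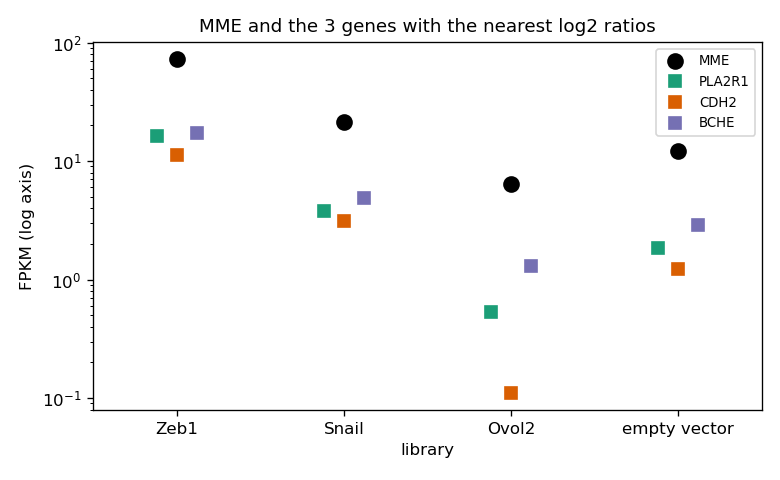
FPKM (log axis) of MME and of PLA2R1, CDH2 and BCHE, the 3 genes with the nearest log2 ratios, in the 4 libraries, 1 point per library. MME stands at 72.5, 21.4, 6.43 and 12.1 FPKM, and the other 3 genes, chosen for their near ratios, take the same order at lower levels.

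Each gene list here and below is to be read beside the shares over all kept genes. They were 4.52% higher and 8.49% lower with Zeb1 (median -0.09), 1.0% and 1.5% with Snail (0.12), and 6.82% and 25.1% with Ovol2 (-0.51). Of 10 other surface peptidases, 6 were kept with Zeb1, with 0 higher and 0 lower (median log2 ratio 0.37), and 5 with Snail, again 0 and 0 (0.32). Of 5 kept with Ovol2, 4 were lower and 0 higher (median -2.37). Upper quartile scaling gave 3 lower and 1 higher of 6 kept with Ovol2 (median -1.25), and scaling without RMRP and RPPH1 gave 1 higher with Zeb1. ANPEP, aminopeptidase N, was at 0.819 FPKM with Ovol2 against 17.4 with the empty vector (log2 ratio -3.34), the endothelin-converting enzyme ECE1 at 1.28 against 12.8 (-2.60) and the carboxypeptidase CPD at 1.93 against 14.1 (-2.37). These 3 were named as the largest ratios of the list past 2-fold. They thus exceed MME (-0.82) in the same library by that choice.

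NT5E encodes the ecto-5'-nucleotidase that turns AMP outside the cell into adenosine. Its levels were 5.13 FPKM with Zeb1, 5.35 with Snail, 1.02 with Ovol2 and 4.395 with the empty vector. Both EMT libraries lay close to the empty vector (log2 ratios 0.18 and 0.23), while the Ovol2 library was 4.30-fold lower (log2 ratio -1.42). At the estimated depth and longest coding transcript this is about 97 fragments with Ovol2 against 501 with the empty vector, in libraries of unequal depth. Because the Ovol2 value is near 1 FPKM, the call rests on the pseudocount, and with one of 5 the ratio was -0.64. The call also rests on the filter, since both values lay below 5 FPKM and a filter of 5 FPKM dropped the gene. A log2 ratio lower than that of NT5E belonged to 10.8% of kept genes in that library. EXTL3, KLC1 and MCM3AP had the nearest ratios to NT5E, at distances of 0.03, 0.04 and 0.05.

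Of 13 genes that make, break down, carry or sense adenosine, 5 were kept with Zeb1 (0 higher, 2 lower, median -0.95), 6 with Snail (0 and 0, median -0.22) and 5 with Ovol2 (0 higher, 2 lower, median -0.60). Over all kept genes 8.49% were lower with Zeb1 (median -0.09) and 25.1% with Ovol2 (median -0.51). The Ovol2 median of the list was thus near that of all genes. A count of 2 in 5 is too small to set apart from the share. Of the lower genes in the list 1 was left with Zeb1 without RMRP and RPPH1, and 1 with Ovol2 under centring or upper quartile scaling. ENTPD1, which makes the AMP that NT5E consumes, was at 0.645 FPKM with Zeb1, 1.20 with Snail, 0.167 with Ovol2 and 0.820 with the empty vector. The adenosine receptor ADORA2B was at 2.06 FPKM with Zeb1 against 7.17 with the empty vector (-1.41), and the nucleoside transporter SLC29A2 at 1.11 against 3.66 (-1.14). With Ovol2 the transporter SLC29A1 was at 4.83 against 20.5 (-1.89) and adenosine deaminase, ADA, at 7.38 against 15.9 (-1.01).

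PROCR encodes the endothelial protein C receptor, which presents the anticoagulant protease protein C for activation and in mouse mammary gland marks a population described as stem cells. It was at 6.47 FPKM with Zeb1, 23.2 with Snail, 21.7 with Ovol2 and 21.1 with the empty vector. Only the Zeb1 library stood away from the other 3, at 3.26-fold below the empty vector (log2 ratio -1.56), the 304th lowest of 11922 ratios. It was also 3.59-fold below Snail. The Snail and Ovol2 ratios (0.13 and 0.04) were near 0, and their sign changed under some settings. Across the settings the Ovol2 ratio ran from -0.63 to 0.71. The nearest genes were the cyclin CCND1, the ribonucleoprotein NHP2 and the small nucleolar RNA SNORD86, at distances of 0.16, 0.16 and 0.18. The cyclin was also near PROCR in its empty vector level, at 21.2 FPKM against 21.1. Its 6.17, 22.3 and 19.9 FPKM with Zeb1, Snail and Ovol2 then follow from the selection by ratios.

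The PROCR promoter stretch is shown because the gene went the opposite way to MME in the same library. The stretch lies inside the PROCR gene entry, which begins at 35171096 on GRCh38. The stretch holds 0 CANNTG, so no letters are in capitals.
PROCR, GRCh38.p14 chr20:35171822-35172071, plus strand: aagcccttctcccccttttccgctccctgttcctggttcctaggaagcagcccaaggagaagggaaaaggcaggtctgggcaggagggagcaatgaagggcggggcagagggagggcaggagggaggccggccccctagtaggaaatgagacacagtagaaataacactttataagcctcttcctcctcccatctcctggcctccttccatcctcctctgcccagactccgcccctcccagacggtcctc
Over the 7 markers with promoter entries, 6 of 15 windows of 250 bases before a start held CAGGTG on either strand, against 17.5% of 35116 windows in the whole table. Of the 6, PROM1 has 3, MME 2 and CD24 1, and the 2 of MME overlap. CANNTG was in 7 of 15, against 61.8%, and CCGTTA, a core letter string linked to OVO-type factors, in 0 of 15, against 2.45%. CD44, NT5E, PROCR and ENG, with 1 window each, held none of the 3 motifs, which says only that these letters are not in those windows.

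Around PROCR, 7 of 12 genes of protein C and coagulation were kept with Zeb1 (2 higher, 1 lower, median 0.47), 7 with Snail (0 and 0, median 0.70) and 6 with Ovol2 (0 higher, 4 lower, median -1.55). The partners of the receptor were near absent, with protein C (PROC) below 0.06 FPKM and thrombomodulin (THBD) at most 0.124 in any library. TFPI, an inhibitor of tissue factor, was at 52.1 FPKM with Zeb1 (2.33) and 1.68 with Ovol2 (-1.97), against 9.53 with the empty vector. The protease-activated receptor F2RL1 was at 6.13 with Zeb1 (-1.43) and 4.66 with Ovol2 (-1.76), against 18.2. SERPINA5, the protein C inhibitor, was at 3.10 with Zeb1 against 0.309 (1.65), and the phospholipid-binding ANXA5 at 14.3 with Ovol2 against 104 (-2.79).

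ENG encodes endoglin, a co-receptor that binds TGF-beta family ligands together with signalling receptors. It was low throughout, at 1.99 FPKM with Zeb1, 2.94 with Snail, 1.40 with Ovol2 and 2.997 with the empty vector. Log2 ratios were -0.42, -0.02 and -0.74, none past 2-fold. The plain ratio to Ovol2 was 2.14, so the pseudocount kept it under the rule, and with a pseudocount of 0.1 it was called lower (-1.05). In that library 38.2% of kept genes had a lower ratio. RPA1 and TCTEX1D2 were among the genes with the nearest ratios, both at a distance of 0.07. The endothelial markers PECAM1, CDH5, VWF, KDR and TEK summed to 0.131 FPKM with Zeb1, 0.189 with Snail, 1.55 with Ovol2 and 0.108 with the empty vector. CDH5 was at 0 with the empty vector and VWF at 1.29 FPKM with Ovol2.

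Of the 22 receptors, ligands and SMADs listed with ENG, 18 were kept with Zeb1 (4 higher, 1 lower, median 0.36), 17 with Snail (1 and 0, median 0.22) and 17 with Ovol2 (1 higher, 9 lower, median -1.08). Upper quartile scaling gave 2 higher and 4 lower with Ovol2 (median -0.59). ACVRL1, the receptor that pairs with endoglin in endothelium, was at most 0.0373 FPKM. The ligand TGFB1 was at 22.0 FPKM with Zeb1 against 8.81 (1.23) and TGFB2 at 4.74 against 1.72 (1.08). ID1, a target of BMP signalling, was at 22.3 against 84.3 (-1.87). The other co-receptor TGFBR3 was at 7.25 FPKM with Snail against 2.69 with the empty vector (1.16). With Ovol2 the receptor TGFBR1 was at 1.06 against 22.4 (-3.51) and SMAD5 at 4.83 against 16.4 (-1.58).

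**Figure D3:**
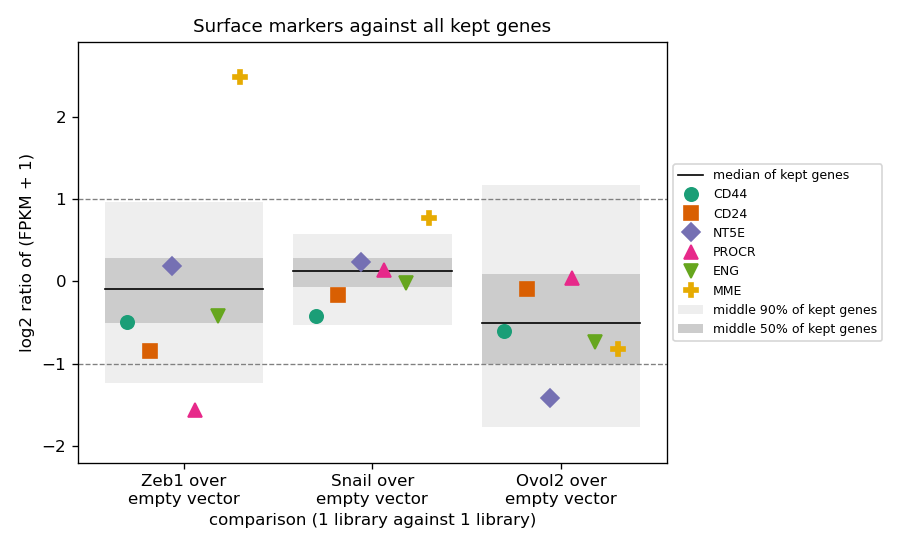
Log2 ratio of FPKM + 1 between each factor library and the empty vector library for the 6 markers that reached 1 FPKM, over bands for the middle 50% and 90% of kept genes and their median. MME (2.48) and PROCR (-1.56) lie outside the 90% band with Zeb1 and MME (0.77) with Snail, while with Ovol2 all 6 lie inside it, NT5E at -1.42 included.

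CD44 was at 27.0 FPKM with Zeb1, 28.4 with Snail, 24.8 with Ovol2 and 38.2 with the empty vector. All 3 factor libraries lay below the empty vector, by less than 2-fold (log2 ratios -0.49, -0.42 and -0.60), so neither EMT library had more CD44 RNA than the control. Among kept genes, 25.7% had a lower ratio with Zeb1, 7.01% with Snail and 45.0% with Ovol2. The Snail value was therefore toward the low end of a narrow distribution and the Ovol2 value near the middle of a wide one. Upper quartile scaling gave 0.07 for Ovol2. The Zeb1 and Snail ratios stayed below 0 under all 10 settings, some of which cannot alter a marker ratio. SEPT9, MIR1204 and ZNRF2 had the nearest ratios, at distances of 0.15, 0.19 and 0.20. Neighbouring libraries among the factors differed by at most 1.09-fold.

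CD24 was the most abundant of the markers, at 161 FPKM with Zeb1, 259 with Snail, 271 with Ovol2 and 289 with the empty vector. It ranked 163rd of 11310 genes at 1 FPKM or more with Zeb1 and 137th of 11359 with the empty vector. Without rescaling, only Zeb1 stood away from the others, at 1.80-fold below the empty vector (log2 ratio -0.84), short of the 2-fold rule. The Zeb1 ratio was -0.53 without RMRP and RPPH1 in the scaling. Snail and Ovol2 were at -0.16 and -0.10, and the Ovol2 sign changed under centring (0.07) and upper quartile scaling (0.60). ABCB6, HIST1H2BC and GPI had the nearest ratios, at distances of 0.07, 0.09 and 0.09. RefSeq lists 5 CD24 pseudogenes, none of which had a row in the tables. The labels do not say how reads shared with such copies were assigned, so CD24 levels are uncertain.

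CD24 exceeded CD44 in every library, 5.97-fold with Zeb1, 9.12-fold with Snail, 10.9-fold with Ovol2 and 7.57-fold with the empty vector. On the log2 scale the CD44 to CD24 ratio differed from the empty vector by 0.36 with Zeb1, -0.26 with Snail and -0.51 with Ovol2. A scale factor for a whole library cancels in the plain ratio of the genes. The balance was tilted toward CD44 with Zeb1 and away from it with Snail and Ovol2, in each case by less than 2-fold, and with Zeb1 both genes were below the empty vector. Correction for transcript length moved these differences to 0.04 with Zeb1, -0.39 with Snail and 0.12 with Ovol2, so the Ovol2 direction turned and the Zeb1 difference was close to 0. Gene-level values do not separate CD44 splice forms. The splicing regulators ESRP1 and ESRP2, which are known to favour the epithelial forms of CD44, were at 3.51 and 1.91 FPKM with Zeb1, 13.8 and 8.04 with Snail, 21.6 and 14.1 with Ovol2, and 22.4 and 11.5 with the empty vector.

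**Figure D4:**
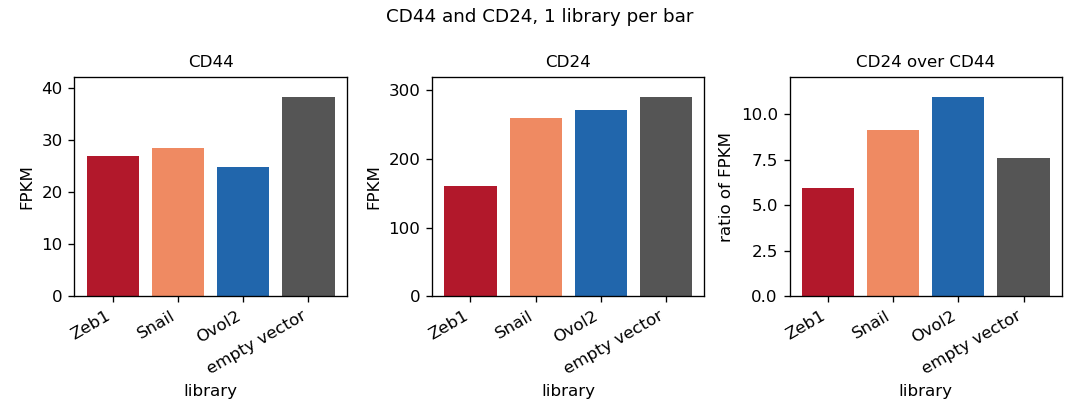
FPKM of CD44 (left) and CD24 (middle) and the ratio of CD24 to CD44 (right) in the 4 libraries, 1 library per bar. CD44 is highest with the empty vector at 38.2 FPKM, CD24 is lowest with Zeb1 at 161, and the ratio runs between 5.97 with Zeb1 and 10.9 with Ovol2.

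Of 20 genes that make, bind or act with hyaluronan and CD44, 14 were kept with Zeb1 (2 higher, 2 lower, median -0.35), 13 with Snail (1 and 0, median 0.15) and 14 with Ovol2 (2 higher, 7 lower, median -0.96). HAS2, a hyaluronan synthase, was at 8.44 FPKM with Zeb1 (3.22) and 1.32 with Snail (1.20), against 0.0112 with the empty vector. VCAN, a proteoglycan that binds hyaluronan, was at 21.0 FPKM with Zeb1 against 0.235 (4.16). HAS2 and VCAN were thus higher with Zeb1 by far more than 2-fold, while CD44 itself was not higher. Upper quartile scaling turned the Snail median of the list to -0.01, and with Ovol2 it gave 3 higher and 4 lower (median -0.34). With Ovol2 the membrane-cytoskeleton linker MSN was at 6.52 FPKM against 61.0 (-3.04), its relative NF2 at 3.53 against 15.1 (-1.83) and the membrane protease MMP14, which can cleave CD44, at 31.1 against 113 (-1.83).

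THY1, a GPI-anchored protein of stromal and neural cells, was at 0.0640 FPKM with Zeb1, 0.0198 with Snail, 0.0173 with Ovol2 and 0.0374 with the empty vector. Scaled to its longest coding transcript these are about 8, 2, 1 and 4 fragments, too few to order the libraries. PROM1, a membrane-protrusion protein used to sort stem cells, was listed at 0 with Zeb1, at 0.0190 FPKM with Snail, at 0.0382 with Ovol2 and at 0 with the empty vector. A listing at 0 allows up to 0.0201 FPKM with Zeb1 and 0.0237 with the empty vector, counting 3 fragments on the longest coding transcript and covering counting error only. THY1 with Zeb1 and with the empty vector and PROM1 with Ovol2 lay above the level of 3 fragments, and every value of both genes was below 0.1 FPKM. PROM2, the related prominin of epithelial membrane protrusions, was at 4.59 FPKM with Zeb1 (-2.42), 19.7 with Snail (-0.53) and 26.4 with Ovol2 (-0.13), against 28.9 with the empty vector.

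NT5E, CD24 and THY1 depend on a GPI anchor. Of 12 genes that build, attach, remodel or cut it, 11 were kept with Zeb1 (0 higher, 0 lower, median -0.03), 11 with Snail (0 and 0, median 0.05) and 12 with Ovol2 (1 higher, 0 lower, median -0.28). The signs of these medians depend on scaling, since centring gave 0.09 with Zeb1 and -0.09 with Snail, and upper quartile scaling gave 0.33 with Ovol2, with 3 higher. Without rescaling, the 1 higher with Ovol2 was GPLD1, a phospholipase that cuts the anchor, at 2.06 FPKM against 0.219 (1.33). Of 16 other GPI-anchored surface proteins, 13 were kept with Zeb1 (2 higher, 5 lower, median -0.81), 13 with Snail (0 higher, 1 lower, -0.14) and 12 with Ovol2 (3 higher, 1 lower, 0.31). Without RMRP and RPPH1 in the scaling, the Zeb1 split was 3 higher and 2 lower, with a median of -0.54. Upper quartile scaling gave 6 higher and 1 lower with Ovol2 (median 0.85), and with Snail each of the 3 scalings gave 2 lower. CD14, a co-receptor for bacterial lipopolysaccharide, was at 16.97 FPKM with Zeb1 against 1.46 (2.87), and the protease inhibitor RECK at 4.37 against 0.949 (1.46). LY6D, an epithelial surface protein, was at 2.37 with Zeb1, 4.32 with Snail and 224 with Ovol2, against 15.4. PSCA was at 356 FPKM with Ovol2 against 5.41 (5.80), and LYPD3 at 171 against 14.9 (3.43).

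Of 20 other antigens used to sort stromal or stem cells, 11 were kept with Zeb1 (3 higher, 2 lower, median 0.64), 10 with Snail (1 higher, 1 lower, 0.45) and 10 with Ovol2 (2 higher, 6 lower, -1.68). Scaling without RMRP and RPPH1 gave 5 higher with Zeb1, centring or upper quartile scaling gave 0 higher with Snail, and the Ovol2 median was -1.07 under upper quartile scaling. The fibronectin receptor chain ITGA5 was at 139 FPKM with Zeb1 (2.06) and 2.57 with Ovol2 (-3.23), against 32.5 with the empty vector. ITGA6, the laminin receptor chain also called CD49f, was at 80.6 with Zeb1 against 248.6 (-1.61), and EPCAM at 1.08 with Zeb1 (-1.87) and 0.683 with Snail (-2.18), against 6.61. The endothelial and stromal antigen MCAM was at 22.6 with Snail against 9.92 (1.11). With Ovol2 the integrin chains ITGAV and ITGB1 were at 11.2 against 76.0 (-2.66) and 38.3 against 201 (-2.36). KIT, LGR5, CXCR4, VCAM1, NCAM1 and PDGFRA stayed under 0.1 FPKM in all 4 libraries.

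**Figure D5:**
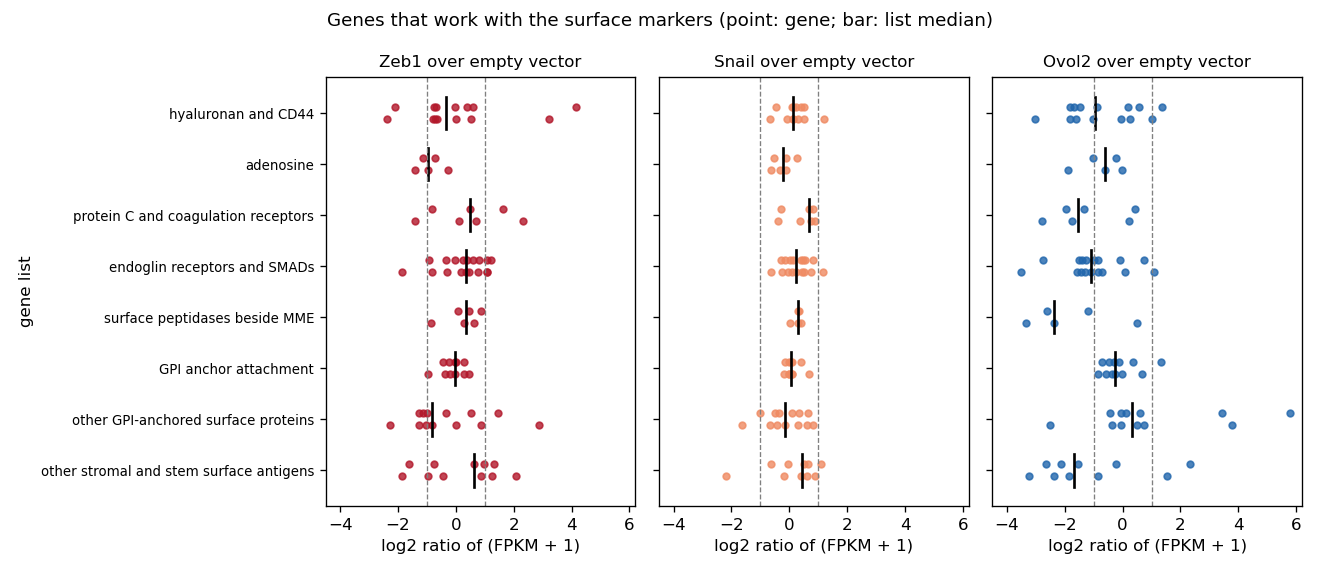
Log2 ratio of FPKM + 1 over the empty vector for each kept gene (point) of 8 lists of genes that work with or resemble the surface markers, with list medians as bars and dashed lines at 2-fold. The surface peptidases (median -2.37, or -1.25 under upper quartile scaling) and the other stromal and stem antigens (-1.68, or -1.07) lie furthest to the low side with Ovol2 as plotted. The protein C and coagulation list is close (-1.55, or -1.20), and under upper quartile scaling its median is below that of the antigens. With Snail few points pass the 2-fold lines, among them EPCAM (-2.18), LY6D (-1.63) and HAS2 (1.20).

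Cell type markers were read in the same libraries. All 7 basal epithelial markers reached 1 FPKM in every library and summed to 2623 FPKM with Zeb1, 7861 with Snail, 6014 with Ovol2 and 9771 with the empty vector. All 7 were lower with Zeb1 (median log2 ratio -1.93). With Ovol2 4 of the 7 were lower and 1 higher (median -1.43), with KRT5 at -3.76 and SFN at 1.29, and upper quartile scaling gave 2 lower and 1 higher. KRT17 made up 4624 of the 6014 FPKM summed with Ovol2. The part of these markers in the PROCR, CD24 and NT5E values was not tested. Of 5 luminal markers, 4 were kept with Zeb1 (0 higher, 2 lower, median -0.82), 4 with Snail (0 and 1, -0.20) and 4 with Ovol2 (0 and 1, -0.26). Without RMRP and RPPH1 1 was lower with Zeb1, and upper quartile scaling gave 1 higher and 1 lower with Ovol2 (median 0.39). KRT18 was at 39.8 FPKM with Zeb1 against 96.1 (-1.25), and MUC1 at 0.353 with Ovol2 against 4.95 (-2.14). KRT8 did not pass 2-fold, KRT19 was at most 0.909 FPKM, and EPCAM is given above. Of 5 immune markers 2 were kept in each comparison, with 2 higher with Zeb1, 0 with Snail and 1 with Ovol2, and 0 lower. Upper quartile scaling gave 2 higher with Ovol2, and scaling without RMRP and RPPH1 gave 0. CD68 was at 4.86 FPKM with Zeb1 (1.09), 2.24 with Snail (0.23) and 5.09 with Ovol2 (1.14), against 1.76 with the empty vector. CD14 is given above. PTPRC was at most 0.0177 FPKM in any library and CD3E was at 0 in all 4. RMRP and RPPH1, a pair of structural RNAs, held 22.1% of all FPKM with Zeb1, 18.7% with Snail, 40.6% with Ovol2 and 24.6% with the empty vector.

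In the authors' deposited tables, 6 of the 8 markers had an adjusted p-value below 0.05 in the Zeb1 comparison, 6 in the Snail and 6 in the Ovol2 comparison, where 77.9%, 81.0% and 86.3% of all rows did. Those p-values come from 1 value per side. In the authors' deposited table for Snail, PROM1, at 0.0190 FPKM, had an adjusted p-value of 5.7e-13, while CD24 had 0.82. They were not used to call genes.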

How the data were processed

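The submitters' processing notes name TopHat, Cufflinks and Cuffdiff and the hg19 build. Neither their versions nor the annotation are stated there. The authors deposited 3 tables of 25360 rows, each with the empty vector library and 1 factor library. No header names the unit, and the deposited values were read as FPKM because of these tools and their range. The deposited tables also hold adjusted p-values of the authors, from 1 value per side. The empty vector columns were identical, so the tables share a scale, and 43 repeated rows were summed by symbol.

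Log2 ratios used a pseudocount of 1 FPKM, which understates differences of low genes. No test was possible with 1 library per group. Nearness was the Euclidean distance over the 3 log2 ratios, and 3 genes were named per marker. Of each list, up to 3 genes past 2-fold with the largest ratio were named per comparison, and other genes were named after their values were seen. A few genes that these rules select are not reported here. Markers and lists were chosen with earlier results of these data known. Depth came from the commonest low value of FPKM times transcript length, within a preset window and in genes with 1 transcript. A depth outside the range of that window could not be found. Transcript lengths and exons came from GENCODE 29, found for 92.8% of symbols, and promoters from RefSeq (GRCh38.p14), with no coordinates taken from the deposited files. The steps were run in Python 3.11.15 with pandas 2.3.3 and matplotlib 3.10.9. The log2 ratio and the 2-fold rule were tested on simulated counts for a pair of libraries of equal depth. The other steps were not tested on simulated data. Alternatives were another pseudocount (0.1 or 5), no filter or one of 5 FPKM, centring, upper quartile scaling, rescaling without RMRP and RPPH1, coding genes only, length correction, and the highest of repeated rows.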

Additional observations from a re-analysis of the deposited data

How the results depend on the processing

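No paired analysis was possible because each group held 1 library. Of 176 marker ratios recomputed under the alternatives, 166 kept their direction and their side of the 2-fold rule. Part of these were the same in advance. A change of filter, coding genes only and the highest of repeated rows cannot alter the ratio of a marker. Both calls with Zeb1 (MME between 2.18 and 2.80, PROCR between -1.69 and -1.19) and the absence of calls with Snail held under all 10 settings. With Ovol2, 1 marker was lower as reported, 2 with a pseudocount of 0.1 (ENG added at -1.05), 2 without RMRP and RPPH1 (MME added at -1.01), and 0 with a pseudocount of 5 (NT5E -0.64) or a filter of 5 FPKM, which drops NT5E. PROCR changed sign with Snail under centring (-0.01) and upper quartile scaling (-0.03) and with Ovol2 without RMRP and RPPH1 (-0.18) and under length correction (-0.63). Over all genes with Ovol2, 806 were higher and 2965 lower (21.4% of calls higher), but 2064 and 1216 (62.9%) under upper quartile scaling, 1053 and 2158 (32.8%) under centring and 437 and 877 (33.3%) with a pseudocount of 5. With Zeb1, 539 and 1012 (34.8%) became 712 and 769 (48.1%) under centring and 1017 and 605 (62.7%) without RMRP and RPPH1. With Snail, 117 and 175 (40.1%) became 78 and 251 (23.7%) under centring, 79 and 229 (25.6%) under upper quartile scaling and 109 and 104 (51.2%) for coding genes. A pseudocount of 0.1 gave 885 and 1541 for Zeb1, 217 and 361 for Snail and 1008 and 4305 for Ovol2. A pseudocount of 5 gave 224 and 416 for Zeb1 and 37 and 60 for Snail. The median over all genes moved to 0.06 under upper quartile scaling with Ovol2 and to 0.19 without RMRP and RPPH1 with Zeb1. Leaving out a library could not be run, since it removes a group. Depth limits THY1 and PROM1.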
